A study of Mus musculus with 4 samples.

Results

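High-score cells were chosen here by their summed level of 4 textbook targets of the tumour suppressor p53. Barcodes of both libraries were pooled, and those with at least 5000 unique molecular identifiers (UMIs, counted transcript molecules) and no UMI of Ptprc, Cd3e, Cd3d, Cd3g, Trac, Trbc1 or Trbc2 were eligible. The score was the UMIs of Cdkn1a, Mdm2, Ccng1 and Phlda3 per 10000 UMIs of the cell, and cells at or above its pooled 95th percentile were taken. That gave 808 of 16143 eligible cells, out of 18778 barcodes in all. The working name for them was p53 target-high tumour cells, and the measurements below went against it as 1 joint programme: no score gene was called higher in cells chosen by the other 3. They are therefore called high-score cells, and the eligible cells below the threshold are called other cells.

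The cells came from MC38 tumours. MC38 is a mouse colon carcinoma line, here injected into untreated mice 10 weeks old and harvested on day 20. Hosts were wild-type mice or FOXP3 humanized mice, FOXP3 being the transcription factor that defines regulatory T cells, and both carried the same unaltered tumour line. The labels give neither the strain, the humanized allele nor the number of animals behind a library. Tumour-infiltrating immune cells were enriched on Percoll per the labels' protocols and captured in droplets. Each genotype gave 1 cDNA library, so n = 1 per genotype, and genotype cannot be told apart from library or animal. Cells of 1 library are not replicates, and every p-value below applies to the class difference in these 2 libraries only. It does not measure agreement between them: a gene can pass with opposite directions in the libraries, as Gbp2 did below.

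The labels call the samples immune cells, but 16143 barcodes passed the rule with no UMI of its leukocyte genes, while 569 at the same depth had one and were left out. The mesenchymal genes Vim, Lgals1 and S100a6 were abundant: Vim stood at 2844 and 3975 CPM (UMIs scaled to a common total per sum of cells) in the wild-type and humanized high-score cells. The epithelial genes Epcam and Krt20 had 0 UMIs in both, and Krt8 had 1 and 3. The defining epithelial genes of a colon carcinoma were thus nearly absent, and Vim stood at 2869.8 and 4092 CPM in the other cells, close to its level in the high-score cells. Of the markers of other cells, the fibroblast list was the most abundant, and its values stand beside the collagen results below. Libraries held 134214718 wild-type and 147738781 humanized UMIs. The 2 libraries shared 1551 barcode names, but the names are serial numbers and not sequences, so shared cells could not be counted.

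p53 is a transcription factor that is held low by MDM2, its own target and ubiquitin ligase, and is stabilised by DNA damage and other stress. It binds a pair of short repeats in DNA and switches on genes for cell cycle arrest, death, repair and its own feedback. CDKN1A (p21) inhibits cyclin-dependent kinases, CCNG1 (cyclin G1) recruits a phosphatase to MDM2, and PHLDA3 competes with AKT for membrane lipids. Through p21 and the DREAM repressor complex, p53 lowers mitotic genes, many of which carry a cell cycle homology region (CHR) in their promoters.

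Promoter windows from RefSeq (GRCm38.p6, 250 bases before to 50 after the start) were searched, since the files hold no sequence and use another build, GRCm39. Of the 77 p53 targets considered, 63 had a window. The p53 response element consensus (both repeats with no spacer, both C and G cores intact, at most 1 mismatch, either strand) was found in 4 of them, or 6.35%, against 0.0814% of all 27025 genes with a window. Both score genes with a match, Cdkn1a and Ccng1, and both other targets are shown because the score was built on p53 targets, with the 20 bases of the match in capitals.
Cdkn1a: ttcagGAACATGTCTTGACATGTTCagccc
Ccng1: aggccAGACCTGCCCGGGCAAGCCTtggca
Rps27l: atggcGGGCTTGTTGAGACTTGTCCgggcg
Gtse1: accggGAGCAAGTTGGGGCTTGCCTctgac
These lie at chr17:29090923-29090952 on the plus strand, chr11:40755457-40755486 on the minus strand, chr9:66946291-66946320 on the plus strand and chr15:85859940-85859969 on the plus strand. All but the Gtse1 match, which spans the start, lie before the annotated start. Mdm2 and Phlda3 had no match in their windows.

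The search was repeated for the CHR (TTTGAA, either strand). It was in 19 of the 25 G2 and mitosis list genes with a window (76%), 3 of 24 of the S phase list (12.5%) and 20.2% of all genes, or 14.1% of those tested below. Among genes lower in high-score cells it was in 100 of 363 (27.5%), and among those higher in 46 of 450 (10.2%). A match describes letters only and is no evidence of binding. The sites of 4 mitotic genes that were lower in the high-score cells are shown, with the CHR in capitals.
Aspm: ggcgcgataTTTGAAccgagcaaa
Plk1: agcgccgcgTTTGAAttcggggag
Ckap2: ttgttcgatTTTGAAatttctcgc
Cdc20: cagttgggtTTTGAAggagccaat
They lie at chr1:139454770-139454793 and chr7:122159456-122159479 on the plus strand and at chr8:22185906-22185929 and chr4:118437347-118437370 on the minus strand.

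The score was carried by Phlda3 and Cdkn1a, and Mdm2 and Ccng1 added little. Phlda3 stood at 533 and 443 CPM in wild-type and humanized high-score cells, against 125 and 126 in the other cells. Cdkn1a stood at 313 and 365 CPM, against 113 and 111. Mdm2 was at 27.4 and 28.3 CPM against 16.7 and 15.1, and Ccng1 at 21.6 and 21.1 against 12.6 and 11.4. These 4 genes chose the cells, so their levels are a description with no test. Phlda3 and Cdkn1a made up 59.6% and 35.0% of the score UMIs of wild-type high-score cells, and 51.7% and 42.5% of those of the humanized ones.

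**Figure D1:**
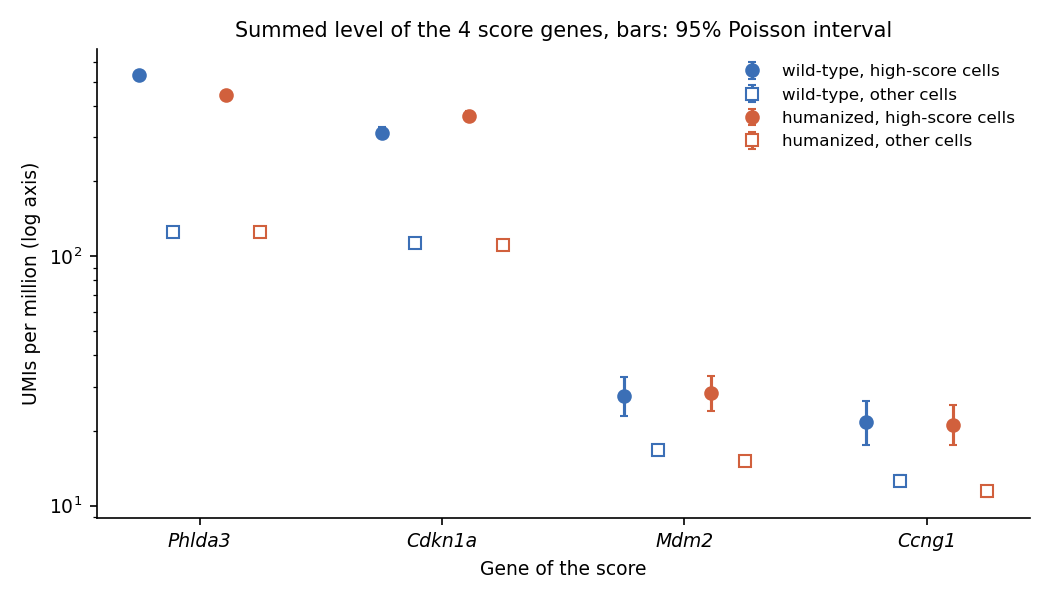
CPM (log axis) of each score gene, summed over high-score cells (filled circles) and other cells (open squares) of the wild-type (blue) and humanized (red) library, with 95% Poisson intervals that cover counting error only. In the high-score cells Phlda3 and Cdkn1a lie between 313 and 533, and Mdm2 and Ccng1 between 21.1 and 28.3.

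Most high-score cells had more UMIs of one of these genes than of the other. More UMIs of Phlda3 than of Cdkn1a were counted in 216 of 320 wild-type and 250 of 488 humanized cells. More of Cdkn1a were counted in 94 and 193, and the rest were tied. The other cells split too, with more of Phlda3 in 2810 of 6286 wild-type and 3879 of 9049 humanized cells. More of Cdkn1a were counted in 2177 and 2960 of them. All 4 genes had a UMI in 18 high-score cells of each library, while 44 and 73 high-score cells had UMIs of a single score gene. The median score was 8.27 and 8.11 UMIs per 10000, against 2.43 and 2.39 in other cells. No gap marked the threshold of 6.87: the lowest score inside was 6.8742 and the highest outside was 6.87403.

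The high-score cells were shallower than the others. Their median depth in wild-type and humanized cells was 11970 and 9180 UMIs, against 17014.5 and 12612 in the other cells. When every cell was thinned to 5000 UMIs before scoring, ties at the pooled 95th percentile took in 1345 cells, which included 69.2% of the high-score cells, and 41.6% of those taken in were high-score cells. Over all eligible cells at that depth, the rank correlations between pairs of score genes ran from -0.0219 to 0.0297 (Spearman, 6606 wild-type and 9537 humanized cells, each set sharing 1 library). Counts at that depth are sparse, so values this weak are no finding in either direction.

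Each score gene was then compared in cells it had not helped to choose. Cells were rechosen at the same percentile of a score of the other 3 genes, UMIs were summed per library and class, and the sums were compared by edgeR's quasi-likelihood test with library as a block (n = 2 libraries a class) and Benjamini-Hochberg adjustment over all genes tested. Phlda3 stood at 134 and 139 CPM in the chosen cells and at 140.1 and 138 in the others (log2 fold change -0.08, edgeR adjusted p = 0.421). Cdkn1a stood at 114 and 99.7 CPM against 121 and 121, and passed the test in the lower direction (log2 fold change -0.18, edgeR adjusted p = 0.0349). That call did not hold against other cells matched on depth (edgeR adjusted p = 0.103) or with DESeq2 (adjusted p = 0.376). Mdm2 was at 18.7 and 15.4 CPM against 17.0 and 15.6 (log2 fold change 0.04, edgeR adjusted p = 0.911). Ccng1 was at 14.1 and 14.2 CPM against 12.9 and 11.7 (log2 fold change 0.19, edgeR adjusted p = 0.483). No left-out gene was called higher. Among all genes, 5.58% were called higher and 5.19% lower in the cells chosen without Phlda3, 11.8% and 10.9% without Cdkn1a, 4.64% and 3.75% without Mdm2, and 6.90% and 5.53% without Ccng1. The counting interval of the humanized Ccng1 ratio ran from -0.07 to 0.61 on the log2 scale, and that of Phlda3 from -0.08 to 0.11.

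**Figure D2:**
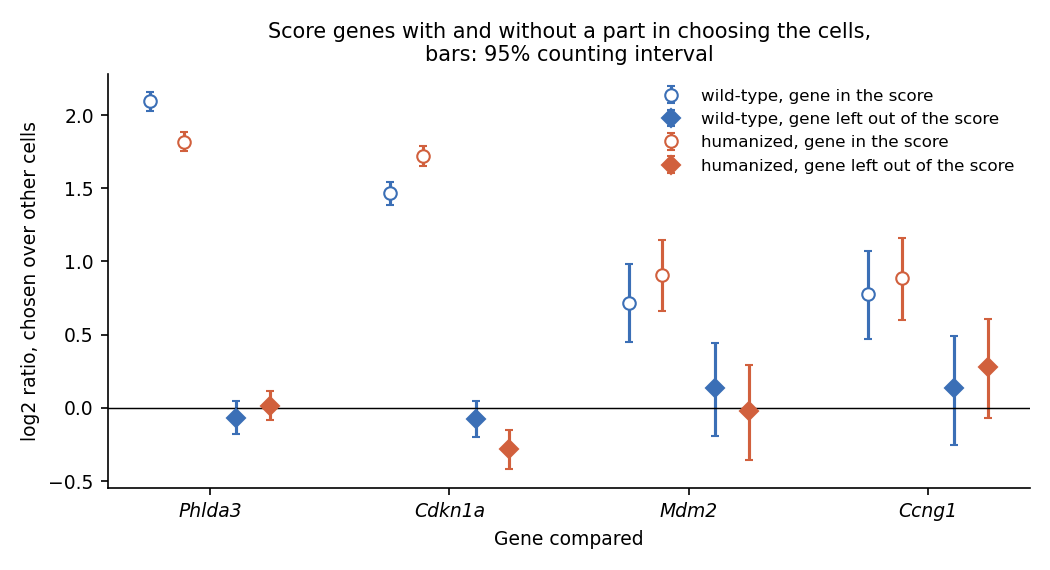
log2 ratio of chosen over other cells for each score gene, with the gene in the score (open circles) and left out of it (filled diamonds), in the wild-type (blue) and humanized (red) library, with 95% counting intervals. The open circles lie between 0.72 and 2.09, and the diamonds between -0.28 and 0.28.

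The transcriptome of the high-score cells was compared with that of the other cells in the same fit, with the score genes left out. Of 8899 genes tested, 567 were higher (6.37%) and 471 lower (5.29%) at an adjusted p under 0.05, and 2061 had an unadjusted p under that value. Both libraries had the sign of the call for 1033 of the 1038 called genes. Most differences were small: 17 genes reached 2-fold on the higher side and 2 on the lower. The test rests on the pairing of cells within a library, with 1 residual degree of freedom, and without the library block no gene passed (0 calls with edgeR, 646 at an unadjusted p under 0.05). DESeq2 called 153 genes higher and 85 lower.

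**Figure D3:**
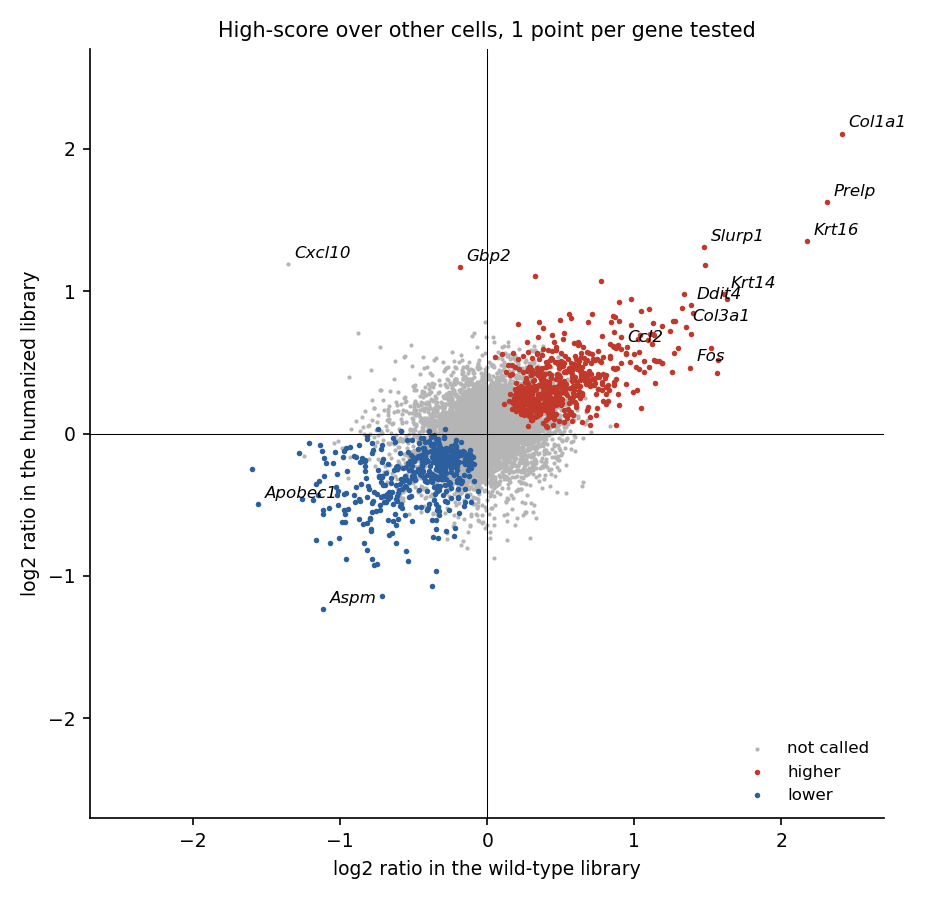
log2 ratio of high-score over other cells in the wild-type (horizontal) and humanized (vertical) library, 1 point per gene tested, red for higher, blue for lower and grey for not called. Col1a1, Prelp, Krt16 and Slurp1 lie farthest to the upper right, Aspm and Apobec1 to the lower left, and Cxcl10 has opposite signs.

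The 3 highest genes were Col1a1, Prelp and Krt16. Col1a1, the major chain of collagen I, was at 35.7 and 49.2 CPM in wild-type and humanized high-score cells and at 6.72 and 11.4 in the others (log2 fold change 2.21, edgeR adjusted p = 2.7e-78). Prelp, a matrix proteoglycan, was at 49.9 and 24.0 CPM against 10.0 and 7.79 (log2 fold change 1.99, edgeR adjusted p = 5.6e-59). Krt16, a keratin of stressed epidermis, was at 178 and 69.2 CPM against 39.4 and 27.1 (log2 fold change 1.79, edgeR adjusted p = 8.7e-118). All were higher in both libraries, and for Krt16 and Prelp the wild-type high-score level was above the humanized one. Single cells weighed on some of them: 20.9% of the wild-type Krt16 UMIs and 19.5% of the Col1a1 UMIs came from 1 high-score cell each. A UMI of Col1a1 was found in 13.1% and 9.22% of high-score cells, against 5.23% and 6.87% of the deeper other cells.

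Slurp1 and Krt14 were also among the 12 highest. Krt14, a basal keratin, was at 997 and 766 CPM against 326 and 389 (log2 fold change 1.27, edgeR adjusted p = 1.8e-109), and was found in 94.7% and 91.6% of high-score cells. Slurp1, a secreted protein of keratinocytes, was at 315 and 209 CPM against 113 and 84.4 (log2 fold change 1.37, edgeR adjusted p = 4.9e-104), with 15.7% of the wild-type UMIs from 1 cell. The remaining genes of the 12 highest were S100a16, a calcium-binding protein, Aldh3a1, an aldehyde dehydrogenase, Tnni1, a troponin, Ddit4, the mTORC1 inhibitor REDD1, and Tsku, Igfbp7 and Cbr2. Their log2 fold changes ran from 1.06 to 1.30. That of Cbr2 came mainly from the wild-type library, with 1.56 and 0.42 in wild-type and humanized cells and a humanized counting interval from -0.04 to 0.86. All 12 stayed higher and passed the edgeR test against depth-matched other cells.

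The fibroblast list moved with these genes. Of 12 fibroblast markers, 5 were tested and 3 were higher. Col3a1, the main chain of collagen III, was at 116 and 115 CPM against 45.6 and 68.7 (log2 fold change 1.02, edgeR adjusted p = 9.3e-43), and Col1a2 at 121 and 106 against 65.9 and 81.0 (log2 fold change 0.60, edgeR adjusted p = 1.5e-15). Dcn, the proteoglycan decorin, was at 26.1 and 34.3 CPM against 36.7 and 31.3 (log2 fold change -0.17, edgeR adjusted p = 0.326), so that its direction differed between the libraries. Summed over the list, the level was 373 and 391.7 CPM in high-score cells and 226 and 268 in the others, and Lum and Fap were at 0 in the high-score cells of both libraries. Lum had 1 UMI in the wild-type other cells and 0 in the humanized ones, so its absence does not set the classes apart. Every cell with a UMI of Col1a1, Dcn, Lum or Pdgfra was then left out, an alternative chosen after the data were seen. That left 210 and 339 high-score cells and 4008 and 6306 others, with 350 higher (3.93%) and 272 lower (3.06%) genes. Cells with other fibroblast transcripts stayed in and fewer cells entered, so the drop does not measure the part of fibroblast transcripts in the calls. Krt16 then had a log2 fold change of 2.01, Prelp of 1.63 and Krt14 of 1.23. In a separate filter, leaving out every cell with a UMI of the myeloid, neutrophil, NK, B cell, endothelial or pericyte markers (fibroblast markers were not part of it), 72 and 153 high-score cells remained, with 104 genes higher (1.17%) and 74 lower (0.832%). Of the other cells, 1568 of 6286 and 2821 of 9049 remained, so most cells of both classes were removed. A UMI of the endothelial and pericyte list was in 73.75% and 64.1% of high-score cells and in 70.5% and 65.2% of the others. The drop in calls cannot be told apart from the loss of cells. Of the endothelial and pericyte markers, 3 of 9 were tested, and the pericyte genes Pdgfrb (23.5 and 20.6 CPM against 11.99 and 14.5, log2 fold change 0.70, edgeR adjusted p = 2.9e-06) and Cspg4 (96.9 and 83.5 against 64.2 and 71.6, log2 fold change 0.39, edgeR adjusted p = 7.2e-06) were higher. Summed over that list, the level was 134 and 118 CPM against 91.6 and 98.9, with the endothelial genes Cdh5, Kdr and Cldn5 at 0 in the high-score cells. Cldn5 was at 0 in the wild-type other cells too. The myeloid list summed to 29.8 and 20.2 CPM against 21.7 and 12.6, and its part in the other calls was not tested separately. C1qa, C1qb and Itgam were at 0 in the high-score cells. C1qa was also near 0 in the other cells, at 0.0574 and 0.0604 CPM, and Itgam was at 0 in the humanized ones. Zeros of genes this scarce do not set the classes apart.

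The p53 targets outside the score were called in both directions, a few in each. Of 73 listed, 50 passed the level filter, of which 7 were higher, 5 lower and 38 not called, beside 6.37% higher and 5.29% lower over all genes. Their median log2 fold change was 0.0087, beside -0.00096 over all genes tested. The higher ones do different things. Ddit4 was at 95.4 and 63.9 CPM against 36.6 and 34.2 (log2 fold change 1.13, edgeR adjusted p = 2.3e-41). Btg2, an antiproliferative gene, was at 10.7 and 10.5 CPM against 5.73 and 5.51 (log2 fold change 0.89, edgeR adjusted p = 6.5e-06). Sfn, the 14-3-3 sigma protein of G2 arrest, was at 13.7 and 12.5 CPM against 8.52 and 7.25 (log2 fold change 0.72, edgeR adjusted p = 1.6e-04). Each of these levels was above the other cells in both libraries.

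Among apoptosis genes, Bbc3 (PUMA), a BH3-only killer, was the one of 10 called, at 21.1 and 23.7 CPM against 15.9 and 15.8 (log2 fold change 0.48, edgeR adjusted p = 0.00258). Bax, the pore-forming protein of mitochondria, was at 145 and 153 CPM against 131 and 142 (log2 fold change 0.11, edgeR adjusted p = 0.324). Siva1 was at 178 and 137 against 183 and 154 (log2 fold change -0.12, edgeR adjusted p = 0.215) and Rps27l, whose promoter match is printed above, at 283 and 244 against 308 and 267 (log2 fold change -0.15, edgeR adjusted p = 0.0897). Neither Bax, Siva1 nor Rps27l passed the test. Pmaip1 (NOXA), Perp and Eda2r had 0 UMIs in the high-score cells of both libraries and were under the filter.

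Among arrest genes, Gadd45a, a damage-induced inhibitor of CDK1, was at 110.4 and 91.4 CPM against 115 and 95.9 (log2 fold change -0.09, edgeR adjusted p = 0.507), and Plk2, a polo-like kinase, at 64.3 and 75.8 against 59.9 and 61.1 (log2 fold change 0.19, edgeR adjusted p = 0.0952). Neither passed. Gtse1, which is itself a G2 gene that p53 induces, was lower, at 5.88 and 4.96 CPM against 10.4 and 8.74 (log2 fold change -0.84, edgeR adjusted p = 5.5e-04). In the repair list none of 11 tested genes was higher and 3 were lower. They were Ddb2, a sensor of ultraviolet damage (log2 fold change -0.61), Polh, a bypass polymerase (-0.50), and Pcna, the replication clamp (-0.27). The wild-type and humanized log2 ratios were -0.98 and -0.16 for Ddb2, -0.69 and -0.28 for Polh and -0.21 and -0.29 for Pcna. Rrm2b, the p53-inducible ribonucleotide reductase subunit, was at 86.0 and 99.3 CPM against 89.8 and 104 (log2 fold change -0.08, edgeR adjusted p = 0.535).

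In the metabolic, redox and secreted group, 4 of 17 tested genes were higher and 1 lower. Beside Ddit4 these were Ak1, an adenylate kinase (log2 fold change 0.60), Pltp, a phospholipid transfer protein (0.52), and Gpx1, a glutathione peroxidase (0.23), and the lower one was the long noncoding RNA Pvt1 (-0.21, with -0.34 and -0.04 in the wild-type and humanized libraries). Gdf15, a stress cytokine often read as a p53 reporter, was at 35.7 and 38.2 CPM against 33.8 and 31.4 (log2 fold change 0.17, edgeR adjusted p = 0.319), which did not pass. Trp53 itself was at 204 and 207 CPM against 209 and 203 (log2 fold change -0.03, edgeR adjusted p = 0.864). Of p53's regulators, 4 of 17 tested were lower and none higher: the kinases Chek1 (-0.85), Chek2 (-0.63) and Aurka (-0.74) and the ribosomal protein Rpl5 (-0.17, with -0.22 and -0.09 per library). Chek1 and Aurka are also cell cycle genes. Among the called targets and regulators, Pcna, Gpx1, Pvt1 and Chek2 did not pass against depth-matched cells (edgeR adjusted p from 0.0521 to 0.117), and Bbc3, Polh, Pcna, Gpx1, Pvt1 and Rpl5 did not pass with DESeq2 (adjusted p from 0.0777 to 0.458), which gave Ddb2, Gtse1, Chek1, Chek2, Btg2, Sfn and Ak1 no adjusted p. Ddb2 also did not pass with totals in place of TMM (edgeR adjusted p = 0.0577) or with a percentile per library (edgeR adjusted p = 0.0764). Mdm4, the partner of MDM2, was at 12.4 and 11.7 CPM against 15.4 and 11.8 (log2 fold change -0.18, edgeR adjusted p = 0.542).

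Mitotic genes were lower. Of 30 G2 and mitosis genes tested, 27 were lower, with a median log2 fold change of -0.50, and Bub1, Bub1b and Kif11 were not called. Plk1, the mitotic polo-like kinase, was at 14.2 and 20.4 CPM against 32.2 and 28.2 (log2 fold change -0.80, edgeR adjusted p = 3.3e-09). Ccnb1, cyclin B1, was at 21.1 and 40.4 CPM against 50.5 and 55.5 (log2 fold change -0.80, edgeR adjusted p = 6.3e-15). Cdc20, an activator of the anaphase-promoting complex, was at 48.8 and 91.4 CPM against 98.98 and 123 (log2 fold change -0.70, edgeR adjusted p = 8.1e-19). In all of them both libraries were lower, with a larger gap in the wild-type one. Aspm, a spindle pole protein, had the lowest fold change of all named genes, at 6.10 and 4.59 CPM against 13.2 and 10.8 (log2 fold change -1.19, edgeR adjusted p = 4.5e-08), from 28 and 25 UMIs. The other mitotic genes among the 12 lowest were Kif20a, Gas2l3, Sgo2a, Nek2 and Ckap2, with log2 fold changes from -0.95 to -0.82.

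Of 29 S phase genes tested, 14 were lower, 15 were not called and none was higher, with a median of -0.26. Mcm3, a subunit of the replicative helicase, was at 47.7 and 38.0 CPM against 58.2 and 52.7 (log2 fold change -0.40, edgeR adjusted p = 1.7e-04). Of 20 genes of G1 and the DREAM complex, 2 were lower and 1 higher, beside 5.29% lower and 6.37% higher over all genes. Counts this small are no finding about the list. The DREAM subunit Lin37 was the higher one (0.45), and its partner Rbl1 (p107) was lower (-0.49). Foxm1, the transcription factor of the mitotic programme, was at 20.0 and 20.2 CPM against 30.6 and 28.1 (log2 fold change -0.56, edgeR adjusted p = 6.1e-05), and Ccnd1, cyclin D1, at 667 and 656 against 693 and 685 (log2 fold change -0.08, edgeR adjusted p = 0.418). Of 13 chromatin and lamina genes tested 7 were lower, with the chromatin protein Hmgb2 at 459 and 520.1 CPM against 724 and 646 (log2 fold change -0.50, edgeR adjusted p = 3.8e-17), and 1, the nuclear lamin Lmna, was higher (log2 fold change 0.21, edgeR adjusted p = 0.00191).

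Depth and cycle state moved with the mitotic result. Against other cells matched on depth, where 3.25% of all genes were called lower, 13 of 30 G2 and mitosis genes were lower (median -0.27), as was 1 S phase gene, Mcm3 (-0.34). In a split made with these same genes, 66.6% and 62.9% of high-score cells lay below the pooled median of the summed S, G2 and mitosis level, against 49.3% and 49.2% of the others. Among the cells below that median, where 3.52% of all genes were called lower, 2 of the G2 and mitosis genes, Top2a (-0.52) and Ccnb2 (-0.47), were lower (median -0.17), and 399 genes (4.48%) were called higher. Of 29 S phase genes 5 were lower in the cells below that median (median log2 fold change -0.32). Without cells carrying the 4 fibroblast genes 21 G2 and mitosis genes were lower, beside 3.06% of all genes. Without cells carrying a UMI of the myeloid, neutrophil, NK, B cell, endothelial or pericyte markers 11 were, beside 0.832%. Plk1 remained lower against depth-matched cells (log2 fold change -0.48, edgeR adjusted p = 0.00854), as did Ccnb1 (-0.62, edgeR adjusted p = 2.3e-07).

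Apobec1, a cytidine deaminase that edits RNA, was the low gene outside the cell cycle with the lowest fold change, at 83.4 and 63.3 CPM against 245 and 89.2 (log2 fold change -1.08, edgeR adjusted p = 1.1e-46). DESeq2 did not call it (adjusted p = 0.303), and its log2 ratio was -1.56 and -0.49 in the wild-type and humanized libraries. Its other-cell level differed between the libraries by more than its high-score level did. Wnt5b, a Wnt ligand (-0.84, with -1.08 and -0.52 per library), Cip2a, an inhibitor of the phosphatase PP2A (-0.87), and Cacna1a, a calcium channel subunit (-0.77), were also among the 12 lowest.

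Immediate-early genes, which growth factors and stress induce within a short time, were higher. Of 22 tested, 15 were higher and 1 lower, with a median log2 fold change of 0.36. Fos was at 179.9 and 127 CPM against 69.2 and 92.0 (log2 fold change 0.90, edgeR adjusted p = 4.9e-39). Dusp1, a MAP kinase phosphatase, was at 161 and 159 CPM against 78.0 and 98.2 (log2 fold change 0.84, edgeR adjusted p = 4.2e-35). Jund was at 583 and 506 CPM against 355 and 353 (log2 fold change 0.60, edgeR adjusted p = 1.2e-23) and Klf4 at 679.6 and 577 against 473 and 408 (log2 fold change 0.49, edgeR adjusted p = 2.2e-16). These levels were above the other cells in both libraries. Fosl1, another AP-1 subunit, was lower, at 180.1 and 201 CPM against 299 and 247 (log2 fold change -0.53, edgeR adjusted p = 1.2e-15). Against depth-matched cells, where 4.24% of all genes were called higher, 11 were higher, and without cells carrying the 4 fibroblast genes 11.

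Other groups held fewer calls, beside 6.37% of all genes higher and 5.29% lower. In the TGF-beta list 5 of 14 tested genes were higher, namely Ccn1 (0.51), Pmepa1 (0.22), the ligand Tgfb1 (0.39), the transcription factor Bhlhe40 (0.66) and the receptor Tgfbr2. Tgfbr2 was at 25.7 and 21.7 CPM against 12.6 and 14.5 (log2 fold change 0.78, edgeR adjusted p = 7.4e-08). In the inflammatory list 3 of 11 were higher and 1 lower. The monocyte chemokine Ccl2 was at 206 and 282 CPM against 109.5 and 187 (log2 fold change 0.73, edgeR adjusted p = 7.3e-30) and its relative Ccl7 at 72.1 and 96.0 against 39.5 and 63.1 (log2 fold change 0.70, edgeR adjusted p = 1.5e-17). The third higher gene was the NF-kappaB inhibitor Nfkbia (0.33), and the lower one the macrophage growth factor Csf1 (-0.29). In the hypoxia and glycolysis list 5 of 21 were higher, led by Ankrd37 (0.71), P4ha2, a collagen prolyl hydroxylase (0.47), and Ndrg1 (0.46), with the glycolytic enzymes Pfkp (0.26) and Pkm (0.22). In the stress and unfolded protein list 6 of 25 were higher and 3 lower, the latter being the metabolic genes Asns (-0.22), Psat1 (-0.18) and Mthfd2 (-0.22). Beside Ddit4, the higher ones were Atf5 (0.35), Xbp1 (0.30), Atf3 (0.24), Herpud1 (0.24) and Cebpb (0.19). Against depth-matched cells 3 of the stress and unfolded protein genes were higher and 0 lower, and 3 TGF-beta genes were higher.

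Interferon and antigen presentation genes had 7 of 17 tested genes higher, beside 6.37% of all genes, and none lower. Against depth-matched cells 3 were higher, and without cells carrying the 4 fibroblast genes 2. Ifit3, an interferon-induced antiviral gene, was at 9.15 and 11.7 CPM against 5.34 and 5.59 (log2 fold change 0.92, edgeR adjusted p = 2.8e-06), but 50% and 29.7% of those UMIs came from 1 cell in each library. Gbp2, an interferon-induced GTPase, was at 11.8 and 31.0 CPM against 13.4 and 13.8 (log2 fold change 0.64, edgeR adjusted p = 3.1e-05), so the call came from the humanized library. There 1 cell gave 23.7% of its high-score UMIs. Psmb9, an immunoproteasome subunit, was at 53.4 and 41.1 CPM against 46.9 and 29.7 (log2 fold change 0.30, edgeR adjusted p = 0.0117). The other four were Isg15 (0.54), Tapbp (0.26), Psmb8 (0.20) and the class I heavy chain H2-K1 (0.15).

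**Figure D4:**
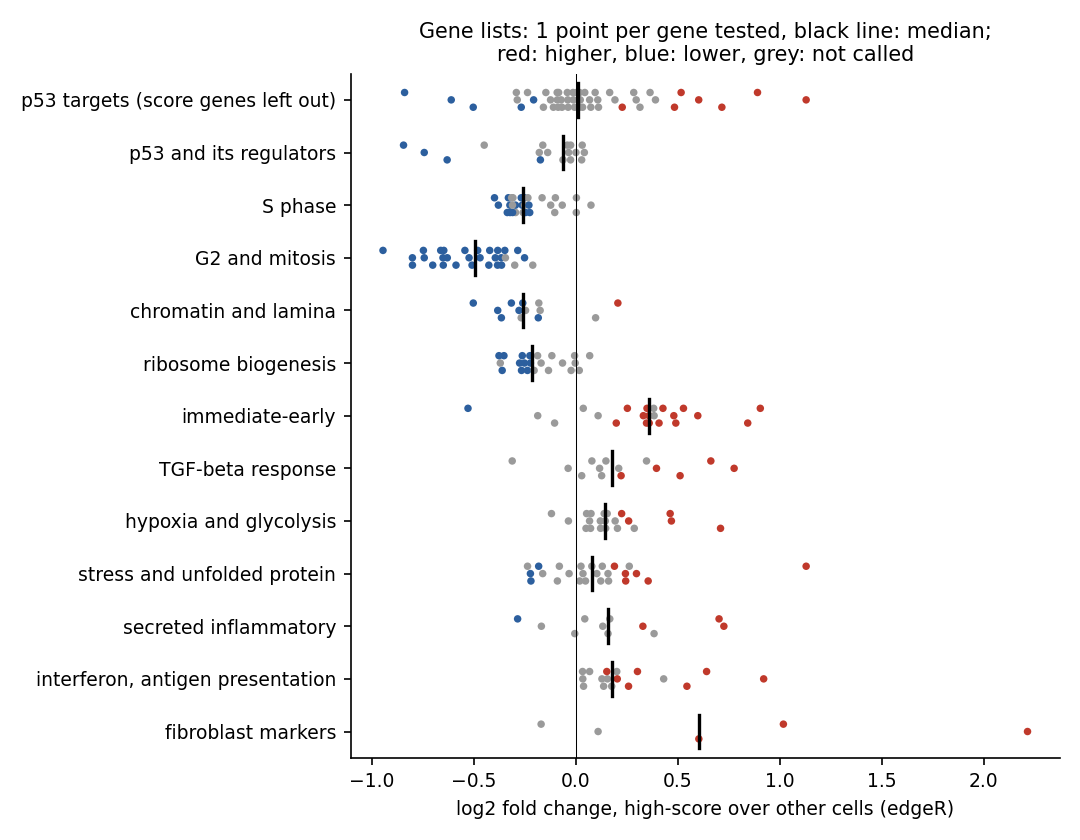
log2 fold change of high-score over other cells from edgeR, 1 point per gene tested in each list, red for higher, blue for lower and grey for not called, with the median as a black line. The G2 and mitosis median lies at -0.50, the immediate-early median at 0.36 and that of the p53 targets at 0.0087.

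Since Phlda3 and Cdkn1a led different cells, the top cells of each gene alone were compared with the rest in turn, a choice made after the data were seen. Each choice took 808 of the 16143 eligible cells, and 38 cells (4.70% of each) were in both. Unrelated choices of this size would share close to that percentage, so the overlap is no finding in either direction. Of the high-score cells, 436 were among the top Phlda3 cells and 327 among the top Cdkn1a cells. In the top Phlda3 cells Cdkn1a was at 115 and 99.3 CPM against 121 and 121 (log2 fold change -0.18, edgeR adjusted p = 0.121). In the top Cdkn1a cells Phlda3 was at 133 and 139 CPM against 140.1 and 138 (log2 fold change -0.07, edgeR adjusted p = 0.475). Neither passed the test. Both comparisons draw on the same libraries and largely the same other cells, and the difference between them was not tested, so their values stand side by side only.

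Top Phlda3 cells had 710 genes higher (7.98%) and 642 lower (7.21%). Of the G2 and mitosis genes 29 of 30 were lower, with a median log2 fold change of -0.90. Neither single-gene choice was compared with depth-matched cells, so the part of depth in its values was not tested. Plk1 had -1.42 (edgeR adjusted p = 0.00124) and Kif20a -1.39 (edgeR adjusted p = 0.00349). The highest genes were Prelp (2.27), Col1a1 (2.24), S100a16 (1.68), the carbonyl reductase Cbr2 (1.53), Col3a1 (1.46) and the water channel Aqp5 (1.46). In the interferon and antigen presentation list 9 of 17 were higher, Ccl2 was at 0.94 and Cxcl10, a chemokine for T cells, at -0.99 (edgeR adjusted p = 0.0108). Inhba, an activin subunit (-1.29), and Rgs16, a brake on G protein signalling (-1.43), were among the lowest.

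Top Cdkn1a cells had 425 genes higher (4.78%) and 336 lower (3.78%). No G2 and mitosis gene of 30 was called lower and 4 were called higher (median 0.13), namely Mki67, Top2a (0.27), Nusap1 (0.30) and Anln (0.30). Mki67, a marker of cycling cells, had 0.38 (edgeR adjusted p = 0.00605), against -0.92 in the top Phlda3 cells (edgeR adjusted p = 0.00122). Of 11 inflammatory genes 8 were higher, with Cxcl10 at 0.93 (edgeR adjusted p = 1.0e-05), the prostaglandin synthase Ptgs2 at 0.81 and the neutrophil chemokine Cxcl1 at 0.59. In the hypoxia list 10 of 21 and in the stress and unfolded protein list 12 of 25 were higher, among them Ndrg1 (0.53), the glucose transporter Slc2a1 (0.43) and the stress factors Atf3 (0.40) and Ddit3 (0.30). Ung, a uracil glycosylase of DNA repair, was the lowest named gene (-0.75). Krt16 (1.16) and Slurp1 (0.89) were higher, as they were in the top Phlda3 cells (1.28 and 1.05). Col1a1 was higher too (1.08), but from the humanized library: its wild-type ratio was 0.02 and its humanized ratio 1.54. Of the p53 targets outside the score, 7 of 50 were higher in the top Phlda3 cells and 6 in the top Cdkn1a cells, with medians of -0.02 and 0.04. Gdf15 had -0.08 (adjusted p = 0.570) in the former and 0.63 (adjusted p = 1.6e-06) in the latter, both from edgeR.

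**Figure D5:**
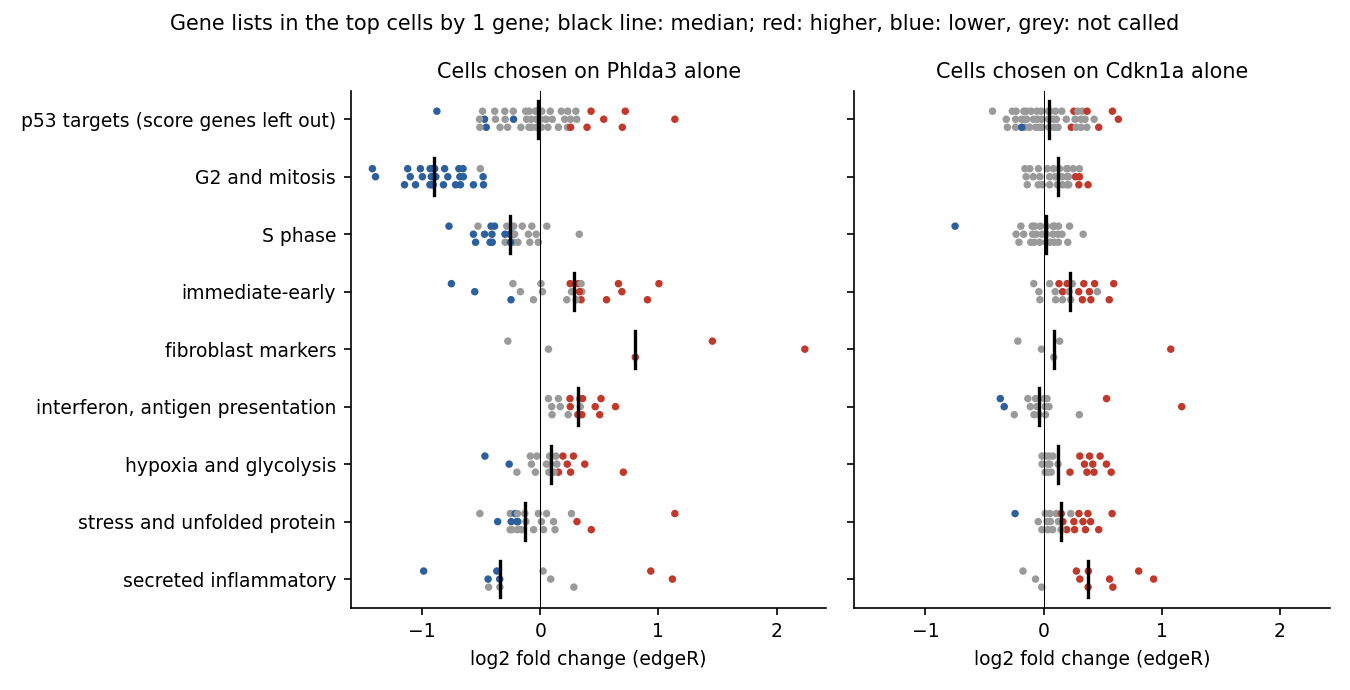
log2 fold change from edgeR for the top cells by Phlda3 alone (left) and by Cdkn1a alone (right) over the remaining eligible cells, 1 point per gene tested, red for higher, blue for lower and grey for not called, with the median as a black line. The G2 and mitosis median is -0.90 on the left and 0.13 on the right, and the inflammatory median -0.34 and 0.38. By library, the G2 and mitosis median on the right was 0.34 in wild-type and -0.04 in humanized cells.

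The share of high-score cells differed between the libraries by less than counting error. They were 320 of 6606 eligible wild-type cells, or 4.84% (95% Clopper-Pearson interval 4.34 to 5.39), and 488 of 9537 humanized ones, or 5.12% (4.68 to 5.58). The log2 ratio of the shares was 0.08, with an interval from -0.13 to 0.29 that covers counting error only. No test was possible between single libraries.

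Few genes differed by 2-fold between the humanized and wild-type high-score cells. Of the 7364 genes whose high-score UMIs summed to 100 or more, 7 were higher by 2-fold or more in the humanized cells (0.0951%) and 36 lower by as much (0.489%), and 1 and 8 of these were so in the other cells too. The median log2 ratio was -0.11. Ier3, a stress-induced survival gene, was at 205 and 491 CPM in wild-type and humanized high-score cells (log2 ratio 1.26, counting interval 1.16 to 1.37), and at 219 and 391 in the other cells. Gbp2 was at 11.8 and 31.0 CPM (log2 ratio 1.40), against 13.4 and 13.8 in the other cells, and 1 cell gave 23.7% of its humanized high-score UMIs. Cxcl10 was at 5.01 and 15.2 CPM (log2 ratio 1.605), with 43.5% and 50.6% of its UMIs from 1 cell in each library. In the other cells Cxcl10 went the other way, at 12.8 and 6.67 CPM. The methionyl-tRNA synthetase Mars1 (1.28) and the sterol enzyme Nsdhl (1.20) were also 2-fold higher in humanized high-score cells. Both were higher in the humanized other cells too. There Mars1 was at 22.8 and 40.4 CPM and Nsdhl at 12.6 and 23.3 in the wild-type and humanized libraries. Lower in humanized high-score cells were Krt16 (-1.36), Krt79, another keratin (-1.64), Lypd2 (-1.54), S100a3 (-1.59) and Smim27 (-1.59). In the other cells they were lower too, with log2 ratios of -0.54, -0.44, -0.72, -0.56 and -0.78 in that order. Single cells gave 20.9% of the wild-type high-score UMIs of Krt16, 33.3% of Krt79, 16.3% of Lypd2 and 15.8% of S100a3. Their gaps in the high-score cells thus rest in part on such cells. Of the score genes, Cdkn1a had a log2 ratio of 0.22 (0.12 to 0.32) and Phlda3 of -0.27 (-0.35 to -0.19), while in the other cells they were -0.03 and 0.0063. Both genes helped to choose the high-score cells, and in cells chosen on their sum more of one goes with less of the other. Their ratios are therefore a description only.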

How the data were processed

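Single-cell RNA was measured in 1 droplet cDNA library per genotype (DNBelab C kit, DNBSEQ-T7, per the labels' protocols); the oligo libraries were left aside. The authors deposited raw UMI counts per gene and barcode, made with PISA 1.0 per the file headers, on GRCm39 per the submitters' processing notes. The aligner, annotation and cell calling are each not given in the sources used here. Doublets were not called, and how they were treated before deposit is not given there either.

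Counts of high-score and other cells were summed per library, giving 4 sums, and compared by edgeR 4.0.16 (quasi-likelihood, TMM, library as block, 1 residual degree of freedom, R 4.3.3). Genes with at least 5 CPM over the eligible cells of each library entered, the score genes were left out, and p-values were adjusted by Benjamini-Hochberg over all of them, with calls at 0.05. DESeq2 1.42.0 was an alternative. Intervals are exact at 95% (Poisson for levels, conditional binomial for ratios, Clopper-Pearson for shares) and cover counting error only. Depth ran from 5001 to 157958 UMIs a cell, and the 4 sums from 4590869 to 132419426 UMIs. With 1 library per genotype, genotypes were compared by fold only, over genes with at least 100 UMIs.

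Named are the 12 highest and 12 lowest called genes with at least 100 observed or expected high-score UMIs and the same sign in both libraries (ribosomal, mitochondrial, sex-linked and unnamed gene models left out), the 5 highest and lowest between genotypes, and genes of the lists. The members and lists were chosen with earlier results of these data known. Alternatives changed the normalization, level filter, percentile, depth minimum, matching, cycle state, marker and mitochondrial filters, block and score genes. The fit was tested on simulated data. Scripts used Python 3.11.15, numpy 2.4.6, pandas 2.3.3, scipy 1.17.1 and matplotlib 3.10.9.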

Additional observations from a re-analysis of the deposited data

Results flagged for a closer look

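In 5 genes of the lists the difference between high-score and other cells had opposite signs in the 2 libraries, with both counting intervals away from 0. The share of all genes tested that met this is not given here, so the 5 are a description only. The intervals cover counting error only, and the ratios of Atf4 and Hsp90ab1 were small. The difference between the libraries was not tested, with 1 library per genotype. For the chemokine Cxcl10 the log2 ratio was -1.35 in wild-type and 1.19 in humanized cells, and 43.5% and 50.6% of its high-score UMIs came from 1 cell in each. For the survival gene Ier3 it was -0.0995 and 0.329, and for the damage-inducible gene Gadd45g -0.216 and 0.265. The stress transcription factor Atf4 had -0.0968 and 0.0686, and the chaperone Hsp90ab1 -0.0342 and 0.0707.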

How the results depend on the processing

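With 567 genes higher and 471 lower as reported, the counts higher and lower were 153 and 85 with DESeq2, 295 and 190 with at least 10000 UMIs per barcode, 377 and 289 against depth-matched cells, 127 and 35 in high-score cells with at least 3 score genes, 104 and 74 without cells carrying a UMI of the myeloid, neutrophil, NK, B cell, endothelial or pericyte markers, 350 and 272 without cells carrying Col1a1, Dcn, Lum or Pdgfra (added after seeing the data) and 0 and 0 without the library block (646 at an unadjusted p under 0.05). At the 99th percentile 336 were higher, and among cells of low cell cycle level 313 were lower. With at least 3 score genes and at the 99th percentile, the cells dropped from the high-score class were counted among the other cells. Fewer cells enter most of the remaining settings, and otherwise the cause was not tested. DESeq2 gave an adjusted p for 5448 genes, and NA for Ccng1 left out of the score. Col1a1 is at 0 by construction in the setting that removes its cells. TMM against RLE factors or totals, the level filter, the 90th percentile, a percentile per library and the mitochondrial filter kept both counts within 1.5-fold, and the 24 highest and lowest genes kept their direction and call against depth-matched cells. Of those 24, 9 lost the call and 1 turned sign at low cycle level, 10 lost the call with at least 3 score genes, 11 lost the call without the marker-carrying cells, 4 lost the call when chosen at 5000 UMIs, 2 lost the call at the 99th percentile, 1 lost the call at the higher UMI minimum and 10 lost the call and 7 turned sign with Cdkn1a alone. DESeq2 lost Apobec1 of the 14 it gave an adjusted p for.

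For Cdkn1a left out of the score the log2 fold change was -0.157 against depth-matched cells (edgeR adjusted p = 0.103) and -0.180 with DESeq2 (adjusted p = 0.376). In single libraries, where no test is possible, it was -0.08 in wild-type and -0.28 in humanized cells. The median of the G2 and mitosis genes was -0.268 against depth-matched cells and -0.165 at low cycle level. The log2 ratio of shares was -0.316 at the 99th percentile. Genes 2-fold higher in humanized high-score cells were 4 at that percentile and 4 when cells were chosen at 5000 UMIs. Those 2-fold lower were 63 at the 90th percentile, 13 at the 99th and 66 when chosen at 5000 UMIs.

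Signs turned for 13 named genes with cells chosen by Cdkn1a alone (added after seeing the data): Cbr2 (-0.270), Apobec1 (0.276), Sgo2a (0.148), Cip2a (0.262), Nek2 (0.0537), Ckap2 (0.0748), Plk1 (0.0326), Gtse1 (0.109), Polh (0.101), Pcna (0.0819), Gpx1 (-0.118), Ak1 (-0.185) and Pltp (-0.0557). At low cycle level they turned for Nek2 (0.366) and Gtse1 (0.0399), and with cells chosen at 5000 UMIs for Ddb2 (0.00377). No paired analysis was possible because each genotype had 1 library, and the library block pairs cell classes within a library.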

Other observations

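Further gene groups were compared between high-score and other cells in the same edgeR fit, where 6.37% of all genes were higher and 5.29% lower. Ribosome biogenesis genes were the group outside the cell cycle with the most lower calls, 10 of 22 tested with none higher and a median log2 fold change of -0.21. Ncl, nucleolin, was at 824 and 709 CPM in wild-type and humanized high-score cells against 1074 and 873 in the others (log2 fold change -0.36, edgeR adjusted p = 1.8e-09). Against depth-matched cells 7 were lower (median -0.16). In top Phlda3 cells 8 were lower and in top Cdkn1a cells 3, and the difference between these choices was not tested.

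Sterol synthesis genes had 3 of 18 higher and 0 lower (median 0.19), the higher ones being Nsdhl (0.34), Fdps (0.33) and Hmgcs1 (0.27). At low cycle level 9 were higher, and without cells carrying the 4 fibroblast genes 1. NRF2 antioxidant targets had 3 of 17 higher and 0 lower, the higher ones being Gstm1 (0.56), Sqstm1 (0.18) and the ferritin light chain Ftl1 (0.16). Against depth-matched cells and at low cycle level 0 of them were called. Hmox1, heme oxygenase, was at -0.70 in top Phlda3 cells (edgeR adjusted p = 0.0189) and at 0.78 in top Cdkn1a cells (edgeR adjusted p = 4.5e-07). Lysosome and autophagy genes had 3 of 19 higher and 1 lower, with the protease Ctsd at 0.36, Npc2 at 0.28 and Ctsl at -0.15. BCL2 family and caspase genes had 2 of 20 higher and 1 lower, with Bbc3 at 0.48, the survival gene Mcl1 at 0.30 and cytochrome c, Cycs, at -0.25. Heat shock genes had 1 of 12 higher and 2 lower, with Hspa1b at 0.27 and the mitochondrial chaperones Hspd1 at -0.24 and Hspe1 at -0.17. Against depth-matched cells 0 heat shock genes were higher and 4 lower, and 2 lysosome genes were higher. Of 8 tested genes of the tumour cell list 4 were higher, namely Anxa2 (log2 fold change 0.40, edgeR adjusted p = 5.7e-14), S100a4 (log2 fold change 0.26, edgeR adjusted p = 1.1e-05), Anxa1 (0.22) and Fn1, fibronectin (0.30). These lists were chosen with results of these data known, so the counts are descriptions.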
